A study of Mus musculus with 54 samples.

Results

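Liver RNA from BMAL1 knockout (KO) mice was compared with liver RNA from wild-type (WT) mice, both harvested at ZT8, that is 8 h after lights on. The comparison held 6 of the 54 libraries of the study: 3 KO livers and 3 WT livers, taken by their labelled genotype and harvest time. The study asked how far the clock of the liver runs on its own, and its other genotype, Liver-RE BMAL1-stop-FL, was not used here. All mice were females aged 8 to 12 weeks on a C57BL/6J background, fed normal chow freely under 12 h of light and 12 h of dark. Livers of each genotype were also taken at ZT0, 4, 12, 16 and 20, with 3 livers per genotype and time. Those 30 further KO and WT libraries were used to ask what differed at ZT8 from the other 5 times.

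The circadian clock of a mouse cell is a feedback loop of transcription. BMAL1, encoded by Arntl, pairs with CLOCK or NPAS2 and activates genes through E-boxes, among them the Per and Cry repressors, the nuclear receptor genes Nr1d1 and Nr1d2, and Dbp. PER and CRY proteins then inhibit the activators, while the REV-ERB receptors made from Nr1d1 and Nr1d2 repress Arntl, Cry1 and Nfil3 through elements that ROR receptors activate. In WT mouse liver the second part of the light phase is known as the time of high Nr1d1 and Dbp RNA and of low Arntl RNA.

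Expression was deposited for 18079 genes without a named unit, and was taken as FPKM, reads scaled by gene length and library depth. The 6 ZT8 libraries averaged 0.5 FPKM or more for 11713 of these, which were compared as log2(FPKM + 1), so the changes of low genes are understated. A gene was called when the Benjamini-Hochberg adjusted p of limma was under 0.05. The steps between low values put the depth at 28.8 to 36.3 M reads in KO and 26.6 to 38.3 M reads in WT at ZT8. WT replicate 2 stood apart from the other WT livers at ZT8. Over the 24 clock genes tested, its root mean square distance was 1.83 on the log2 scale to the mean of the other WT livers at ZT8 and 0.366 to the WT mean at ZT20, while WT replicates 1 and 3 lay 0.231 from each other. By this measure 16 of the 18 WT livers lay nearest their own time. The other exception was replicate 2 of WT at ZT20, 0.344 from the WT mean at ZT0 and 0.563 from the other WT livers at ZT20. WT replicate 2 of ZT8 was kept under its label, and values without it are given beside the results that it decides. The clock genes set this liver apart, so their larger changes and smaller p-values without it partly follow from that choice.

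With all 6 livers, 693 of 11713 genes (5.92%) were called between KO and WT at ZT8, 239 higher in KO (2.04%) and 454 lower (3.88%). At least 2-fold changes were seen for 83 of the higher and 117 of the lower genes. Without WT replicate 2, 758 genes (6.47%) were called, 287 higher (2.45%) and 471 lower (4.02%). The fits shared 523 calls, 75.5% of the calls with all 6 livers and 69.0% of the calls without that liver. The number of calls also rested on other livers: it was 129 higher and 260 lower without WT replicate 1, 157 and 296 without WT replicate 3, and 141 and 253 without KO replicate 3, and 150 were higher without KO replicate 1. The split between directions moved with the scaling: higher genes made up 34.5% of the calls as deposited, 52.9% after quantile normalization and 55.1% when the 20 highest genes were left out of the library sums. Over all tested genes the median log2 fold change at ZT8 was -0.06.

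At the other times, 374 genes (3.19%) were called at ZT0, 321 (2.74%) at ZT4, 2029 (17.3%) at ZT12, 1165 (9.95%) at ZT16 and 861 (7.35%) at ZT20. The higher genes made up 1.22% of those tested at ZT0, 1.68% at ZT4, 8.41% at ZT12, 6.59% at ZT16 and 5.25% at ZT20, and the lower genes 1.97%, 1.06%, 8.91%, 3.36% and 2.1% at those times. Without WT replicate 2 of ZT8 the calls were 3.78% at ZT0, 3.24% at ZT4, 18.1% at ZT12, 10.7% at ZT16 and 8.05% at ZT20, since all libraries share 1 estimate of the spread. Of the 693 genes called at ZT8, 550 were also called at 1 or more other times, 143 at no other time and 63 at all 6 times. ZT12 shared the most with ZT8: 476 genes, 68.7% of the ZT8 calls and 23.5% of the ZT12 calls, 475 of them in 1 direction. ZT0 shared 159 genes, 22.9% of the ZT8 calls and 42.5% of the ZT0 calls. Being called at ZT8 and not elsewhere does not show a difference between times, which was tested directly and is given after the clock genes.

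**Figure D1:**
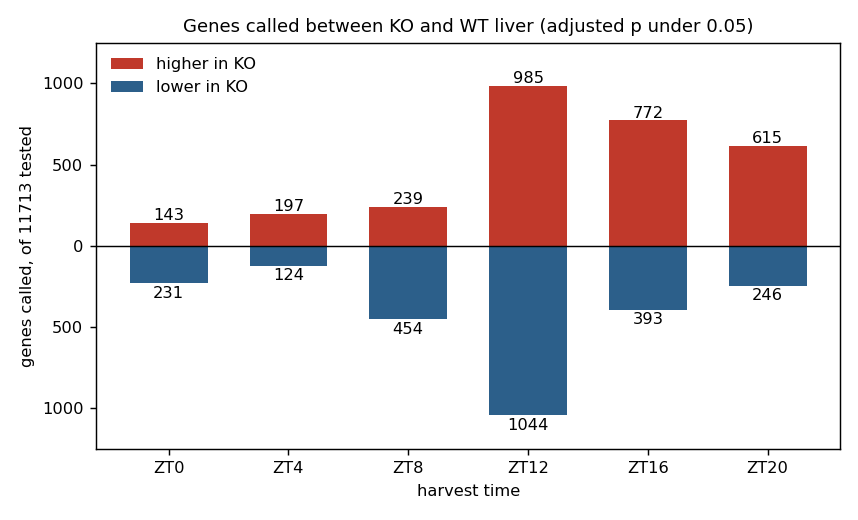
Genes called between KO and WT liver at each harvest time, of 11713 tested (limma, adjusted p under 0.05, all libraries); bars above 0 count genes higher in KO and bars below 0 genes lower in KO. At ZT8 239 genes were higher and 454 lower, against 985 and 1044 at ZT12.

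Among the clock genes, the activators were higher in KO at ZT8. Of the 3 activators, 3 rose and 0 fell, with and without WT replicate 2. The shares over all tested genes were 2.04% higher and 3.88% lower, and 2.45% and 4.02% without that liver. Arntl itself (chromosome 7, 113178471 to 113314126, GRCm38.p6) read 7.17, 7.46 and 6.78 FPKM in the 3 KO livers, against 0.414, 10.6 and 0.563 FPKM in WT replicates 1, 2 and 3. The KO values lay between those of WT replicate 2 and those of the other WT livers. The log2 fold change was 1.46 ± 0.39 (SE, n = 3 per genotype; adjusted p = 0.021), and 2.45 ± 0.14 without WT replicate 2 (adjusted p = 8.73e-13). The call was lost when any other ZT8 liver was left out: the log2 fold change was 0.94 without WT replicate 1 (adjusted p = 0.226) and 1.01 without WT replicate 3 (adjusted p = 0.175), and the adjusted p was 0.0619, 0.0567 and 0.0611 without KO replicates 1, 2 and 3. Which part of the gene the knockout allele changes is not given in the sources used here, so the level of the whole gene did not check the KO label. Npas2, the partner that can stand in for CLOCK, read 4.69, 3.49 and 4.24 FPKM in KO, against 0.0791, 0.756 and 0.104 FPKM in WT (log2 fold change 2.00 ± 0.20, adjusted p = 1.35e-07). Here every KO liver was above every WT liver. Clock read 11.5, 11.7 and 9.77 FPKM in KO and 5.11, 9.58 and 5 FPKM in WT, a smaller gap with WT replicate 2 next to the KO livers (0.71 ± 0.16, adjusted p = 0.00553). The Clock call was lost without WT replicate 1 (adjusted p = 0.0604) and without WT replicate 3 (adjusted p = 0.0567).

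Of the 6 repressors, 1 rose and 2 fell. Cry1 read 18.9, 19.5 and 17.3 FPKM in KO, against 2.95, 15.3 and 2.40 FPKM in WT (1.70 ± 0.33, adjusted p = 0.00133). Per3 read 0.827, 0.723 and 0.716 FPKM in KO, against 5.69, 2.35 and 9.12 FPKM in WT (-1.80 ± 0.22, adjusted p = 3.37e-06). Ciart, which encodes the repressor CHRONO, read 0.140, 0.128 and 0.169 FPKM in KO and 5.45, 0.411 and 4.67 FPKM in WT (-1.70 ± 0.35, adjusted p = 0.00288). In all 3 genes WT replicate 2 lay closest to the KO livers, yet the genotypes did not overlap. Per1, Per2 and Cry2 did not pass the test, with log2 fold changes of -0.02, -0.41 and -0.03.

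Both REV-ERB genes fell. Nr1d1 (chromosome 11, 98767932 to 98775377) read 0.740, 0.241 and 0.569 FPKM in KO, against 17.7, 0.292 and 16.5 FPKM in WT. WT replicate 2 fell inside the KO range, and the other WT livers were far above it. The log2 fold change was -2.32 ± 0.52 with all livers (adjusted p = 0.00553) and -3.59 ± 0.23 without that liver (adjusted p = 1.24e-11). It was -1.66 without WT replicate 1 (adjusted p = 0.0808) and -1.71 without WT replicate 3 (adjusted p = 0.0678), where the call was lost. Nr1d2 fell as well, with 2.83, 2.39 and 2.18 FPKM in KO and 35.1, 3.38 and 33.8 FPKM in WT (-2.35 ± 0.41, adjusted p = 0.000464). Rora was not called (0.11 ± 0.13), and Rorb was not in the table.

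Dbp, Tef and Hlf encode activators that bind D-boxes, and Nfil3 encodes the repressor that competes with them. Dbp (chromosome 7, 45705100 to 45710203) read 1.67, 1.58 and 1.64 FPKM in KO, against 61.9, 1.31 and 66.0 FPKM in WT. Its value in WT replicate 2 was below all KO livers, and in the other WT livers it was the highest of the clock genes that fell. The log2 fold change was -3.02 ± 0.63 (adjusted p = 0.00302), and -4.63 ± 0.20 without WT replicate 2 (adjusted p = 3.71e-15). Tef read 16.1, 16.4 and 16.2 FPKM in KO and 43.4, 18.8 and 43.2 FPKM in WT (-0.98 ± 0.19, adjusted p = 0.00141). Hlf and Nfil3 passed only without WT replicate 2: Hlf at -0.75 ± 0.22 (adjusted p = 0.0349, against 0.124 with it) and Nfil3 at 1.73 ± 0.20 (adjusted p = 6.26e-07, against 0.0824 with it). Nfil3 read 15.5, 12.3 and 14 FPKM in KO and 4.03, 20.7 and 2.98 FPKM in WT, with WT replicate 2 above all KO livers.

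Among the clock modifiers, 1 of 7 tested fell and 0 rose. It was Usp2, which encodes a deubiquitinase, with 1.2, 0.926 and 0.611 FPKM in KO and 7.20, 1.72 and 6.86 FPKM in WT (-1.56 ± 0.34, adjusted p = 0.00393). Bhlhe40, encoding the E-box repressor DEC1, read 15.9, 10.9 and 18.8 FPKM in KO and 41.8, 20.2 and 33.5 FPKM in WT, and did not pass with (adjusted p = 0.167) or without WT replicate 2 (adjusted p = 0.094). Its relative Bhlhe41 was below the filter. Among all tested genes 2.04% rose and 3.88% fell with all livers, and 2.45% and 4.02% without WT replicate 2. Over all 24 clock genes tested, 5 rose and 7 fell with all livers, and 6 rose and 8 fell without WT replicate 2. When only the 6 ZT8 libraries were fitted, 1 rose and 1 fell: Npas2 (adjusted p = 0.00265) and Per3 (adjusted p = 0.0385). In that fit Arntl had an adjusted p of 0.339, Nr1d1 of 0.244 and Dbp of 0.224. The largest KO to WT difference of the day was at ZT8 for 1 of the 24 with all livers and for 8 without that liver, and at ZT12 for 13 and for 9.

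**Figure D2:**
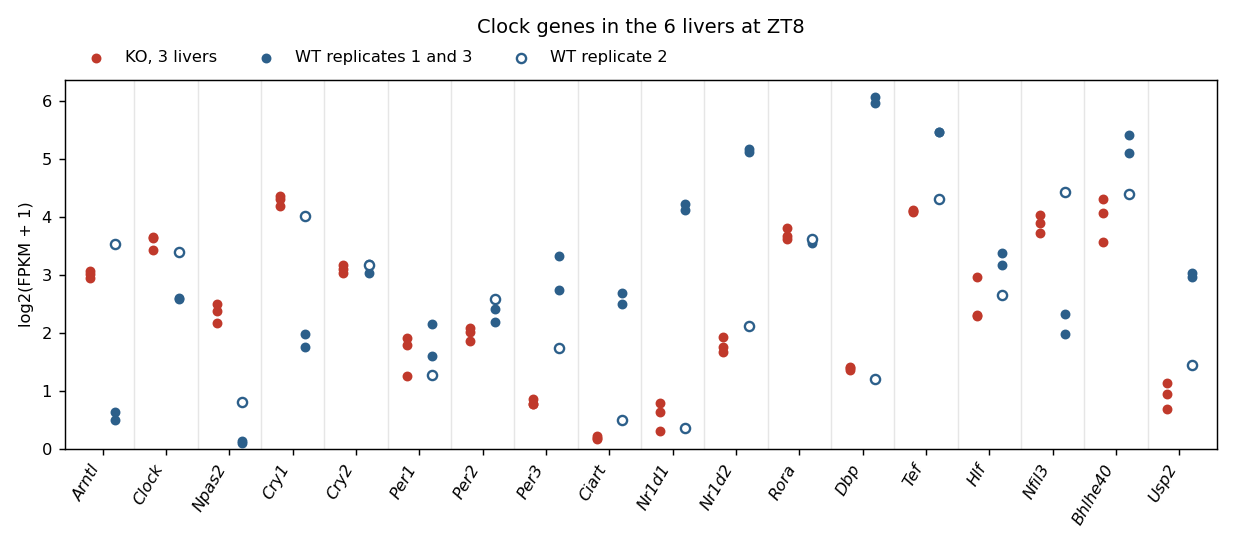
Level of 18 clock genes in each liver at ZT8, as log2(FPKM + 1); red points are the 3 KO livers, filled blue points WT replicates 1 and 3, and open blue points WT replicate 2. In Dbp and Nr1d1 the filled WT points lie above 4 and the KO points below 2, with WT replicate 2 beside the KO points.

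Promoter windows of 300 bases around a RefSeq start (250 before and 50 after, GRCm38.p6) were searched for elements of the loop described above. The 6 windows shown are of clock genes named above and called without WT replicate 2 whose window held the letters of one. Capitals mark the E-box letters CACGTG in Ciart and Tef, which fell, and in Cry1, which rose. They mark the D-box letters TTANGTAA in Per3, which fell, and the ROR element letters TAGGTCA or TGGGTCA in Arntl and Nfil3, which rose (Nfil3 only without WT replicate 2). Both strands were searched. Arntl and Tef had 2 windows each, of which the window with the most matches is shown. In the shares below, a gene held an element if any of its windows did. The windows are chr3:95882179-95882478 (minus strand) for Ciart, chr15:81802423-81802722 (plus strand) for Tef, chr7:113207261-113207560 (plus strand) for Arntl, chr13:52980990-52981289 (minus strand) for Nfil3, chr10:85185005-85185304 (minus strand) for Cry1 and chr4:151044616-151044915 (minus strand) for Per3.
Ciart: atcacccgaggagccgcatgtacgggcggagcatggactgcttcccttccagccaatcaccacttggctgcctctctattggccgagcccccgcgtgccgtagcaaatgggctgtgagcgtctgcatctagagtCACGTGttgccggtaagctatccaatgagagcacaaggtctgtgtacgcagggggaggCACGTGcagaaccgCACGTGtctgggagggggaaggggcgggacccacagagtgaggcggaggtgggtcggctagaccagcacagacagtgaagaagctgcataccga
Tef: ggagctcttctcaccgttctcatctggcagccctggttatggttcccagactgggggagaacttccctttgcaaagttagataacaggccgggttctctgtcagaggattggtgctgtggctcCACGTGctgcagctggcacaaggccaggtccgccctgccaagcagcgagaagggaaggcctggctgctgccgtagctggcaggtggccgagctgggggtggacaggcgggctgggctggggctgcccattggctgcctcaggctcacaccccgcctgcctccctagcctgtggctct
Cry1: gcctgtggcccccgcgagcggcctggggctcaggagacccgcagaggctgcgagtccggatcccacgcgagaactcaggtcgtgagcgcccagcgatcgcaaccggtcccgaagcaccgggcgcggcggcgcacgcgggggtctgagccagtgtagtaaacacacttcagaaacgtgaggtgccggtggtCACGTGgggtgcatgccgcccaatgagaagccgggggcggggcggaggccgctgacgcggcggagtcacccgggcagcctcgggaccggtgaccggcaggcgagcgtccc
Per3: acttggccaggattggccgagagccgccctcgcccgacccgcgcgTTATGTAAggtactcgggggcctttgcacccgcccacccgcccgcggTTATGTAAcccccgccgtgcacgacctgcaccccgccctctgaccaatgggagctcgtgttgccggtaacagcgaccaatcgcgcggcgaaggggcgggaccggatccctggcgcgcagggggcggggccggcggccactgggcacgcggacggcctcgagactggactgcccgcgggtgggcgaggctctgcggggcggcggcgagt
Arntl: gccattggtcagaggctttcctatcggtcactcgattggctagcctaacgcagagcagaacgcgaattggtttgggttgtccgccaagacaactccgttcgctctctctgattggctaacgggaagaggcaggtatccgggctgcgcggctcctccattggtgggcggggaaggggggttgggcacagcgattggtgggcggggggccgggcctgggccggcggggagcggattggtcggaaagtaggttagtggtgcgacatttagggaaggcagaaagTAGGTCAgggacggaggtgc
Nfil3: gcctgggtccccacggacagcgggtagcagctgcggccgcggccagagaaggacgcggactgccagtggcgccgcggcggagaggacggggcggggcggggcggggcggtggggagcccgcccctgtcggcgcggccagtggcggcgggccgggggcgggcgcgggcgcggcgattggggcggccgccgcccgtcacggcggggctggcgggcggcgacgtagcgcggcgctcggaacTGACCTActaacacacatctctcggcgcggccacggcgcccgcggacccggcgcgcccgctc
Ciart held 3 E-boxes, 116, 58 and 44 bases before the start, Tef 1, 127 bases before it, and Cry1 1, 60 bases before it. Per3 held 2 D-boxes, 205 and 158 bases before the start. Arntl held 1 ROR element 30 bases after the start, and Nfil3 1 on the reverse strand 12 bases before it. Of the 8 clock genes that fell without WT replicate 2, 2 held an E-box in this window (25.0%), against 12.2% of the 9082 tested genes with a window and 8.09% of all 27025 gene symbols in the table. Of the 6 that rose, 5 had a window, and 1 of these held an E-box (20.0%). A ROR element was in 2 of those 5 windows (40.0%) and in 0 of the 8 of genes that fell, against 6.43% of the tested genes and 7.35% of all. A D-box was in 1 of the 8 (12.5%) and 0 of the 5, against 1.98% of the tested genes and 2.72% of all. These shares rest on few genes. Dbp, Nr1d1, Nr1d2, Per3 and Usp2 held no E-box in this window, which says only that these letters are not in it. Over all genes called at ZT8, an E-box was in 47 of 348 windows of genes that fell (13.5%) and in 15 of 178 windows of genes that rose (8.43%).

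ZT8 was set against the other times by a test of the KO to WT difference at ZT8 minus its mean over the other 5 times. A gene can pass this test with a larger difference at another time. With all libraries, 2 genes passed (0.0171%), both with a more negative difference at ZT8, and 1265 had an unadjusted p under 0.05. With quantile normalization, with the 20 highest genes left out of the sums and with the replicate number as a block, 0 genes passed. Narf (chromosome 11, 121237236 to 121255856), named for its protein that binds prelamin A, read 7.38, 9.28 and 7.54 FPKM in KO at ZT8, against 19.1, 10.3 and 18.1 FPKM in WT. The KO livers were all below the WT livers, with WT replicate 2 only just above them. Its log2 fold change was -0.85 ± 0.15 at ZT8 (adjusted p = 0.000738), and at the other times it ran between -0.42 at ZT12 and 0.32 at ZT4 and was not called. The difference between ZT8 and the other times was -0.93 (adjusted p = 0.0406). Without WT replicate 2 this became -1.19 (adjusted p = 1.07e-05), and Narf was then also called at 1 other time.

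Gjb2 (chromosome 14, 57098602 to 57104702) encodes connexin 26, a gap junction protein that joins neighbouring hepatocytes. It read 42.1, 46.4 and 44.3 FPKM in KO at ZT8, against 108, 86.2 and 88.3 FPKM in WT, so WT replicate 2 lay with the other WT livers. The log2 fold change was -1.07 ± 0.14 at ZT8 (adjusted p = 8.42e-06), and between -0.41 at ZT0 and 0.01 at ZT20 at the other times, with no call. ZT8 differed from the other times by -0.87 (adjusted p = 0.0406), and by -0.93 without WT replicate 2 (adjusted p = 0.0042). In KO its mean was lowest at ZT8, 44.3 ± 2.17 FPKM, and in WT it was highest at ZT8, 94.3 ± 12.3 FPKM (SD, n = 3). Of the 36 libraries left out in turn, 21 gave 0 genes for this test and 5 gave 1 gene. Among the ZT8 livers the count was 0 without WT replicate 1, WT replicate 3 or KO replicate 3, 1 without KO replicate 1, 5 without KO replicate 2 and 47 without WT replicate 2.

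**Figure D3:**
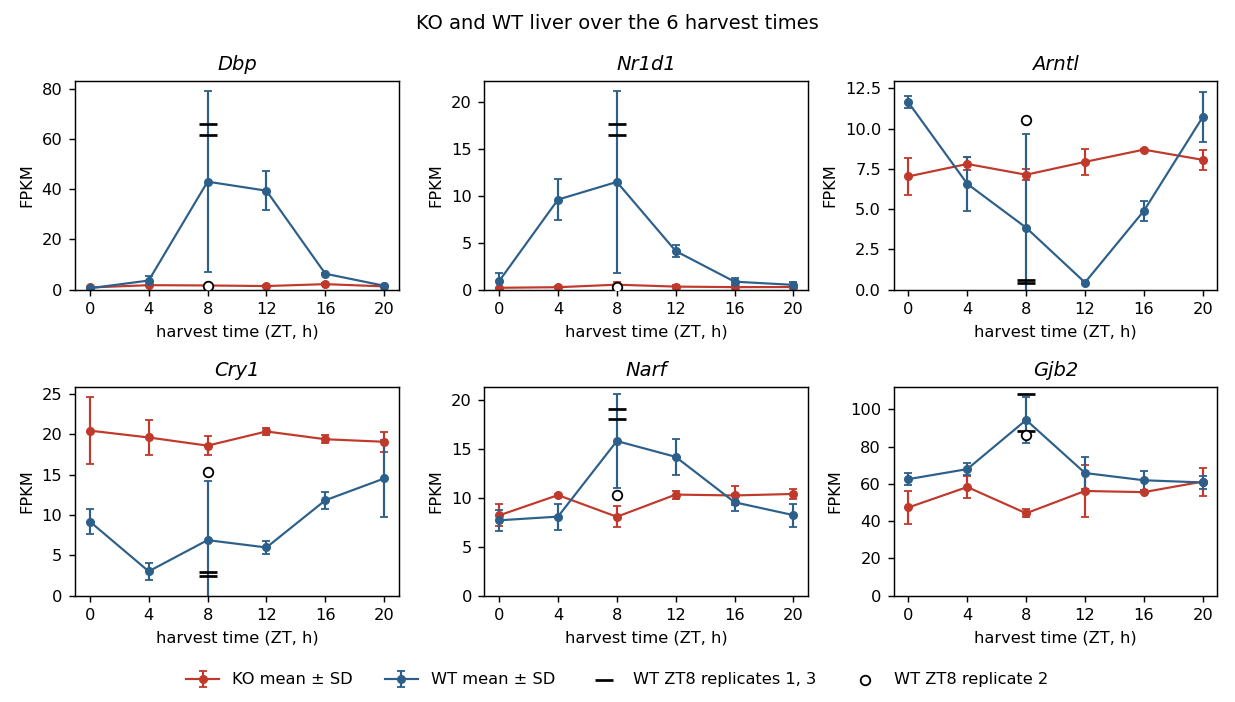
FPKM of 6 genes over the harvest times in KO (red) and WT (blue); points are means of 3 livers and bars SD (cut at 0), black dashes WT replicates 1 and 3 at ZT8 and the open circle WT replicate 2 at ZT8. KO stayed between 0.818 and 2.15 FPKM for Dbp at all times, while WT replicates 1 and 3 read 61.9 and 66.0 FPKM at ZT8.

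Without WT replicate 2, which leaves 2 WT livers at ZT8, 47 genes (0.401%) passed the test of ZT8 against the other times, 15 with a more positive difference (0.128%) and 32 with a more negative one (0.273%). These included both genes found with all libraries, and 10 of the 24 clock genes: Arntl, Cry1 and Nfil3 were the positive ones, and Dbp, Nr1d1, Nr1d2, Per3, Ciart, Tef and Usp2 the negative ones. In this fit Arntl, Nr1d2, Ciart and Tef had their largest KO to WT difference of the day at ZT12, and the others of the 10 at ZT8. WT replicate 2 was set apart by these same 24 genes, so their passing without it is partly built in and is no separate evidence. Dbp differed the most, by -3.46 (adjusted p = 3.93e-11), followed by Nr1d1 with -2.32 (adjusted p = 1.79e-06). Of the 47, 46 were called between KO and WT at ZT8 in this fit. For 10 of them that was the only time, 25 were also called at 1 or 2 other times and 11 at 3 or more.

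In these genes the level at ZT8 differed from that at the other times in WT, where 46 of the 47 were called, and 0 were called in KO. The level at ZT8 against the mean of the other 5 times shifted by a median of 0.160 in KO and 0.876 in WT (size of the log2 difference over the 47 genes), and WT shifted more in 47 of 47. The KO level at ZT8 lay within the range of the KO means at the other times for 23 genes and outside it for 24, Gjb2 among them (-0.31 in KO). This test of ZT8 chose the genes, so the contrast between the genotypes is a description of them. Among all genes, the KO livers at ZT8 differed from KO at the other times for 0 genes (0%), with and without WT replicate 2, while 1257 genes had an unadjusted p under 0.05 and the smallest adjusted p was 0.088. The WT livers at ZT8 differed from WT at the other times for 8 genes with all libraries (0.0683%) and 180 without WT replicate 2 (1.54%). The counts for WT were 0 without WT replicate 1 and 0 without WT replicate 3, and 4 without KO replicate 2. The count for KO was 6 without KO replicate 2. The difference between these counts was not tested as such. Of the 32 genes with a more negative difference, 27 had their highest WT mean at ZT8 and 5 at ZT12. Of the 15 with a more positive one, 12 had their lowest WT mean at ZT8 and 3, Arntl, Clpx and Lrfn3, at ZT12.

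**Figure D4:**
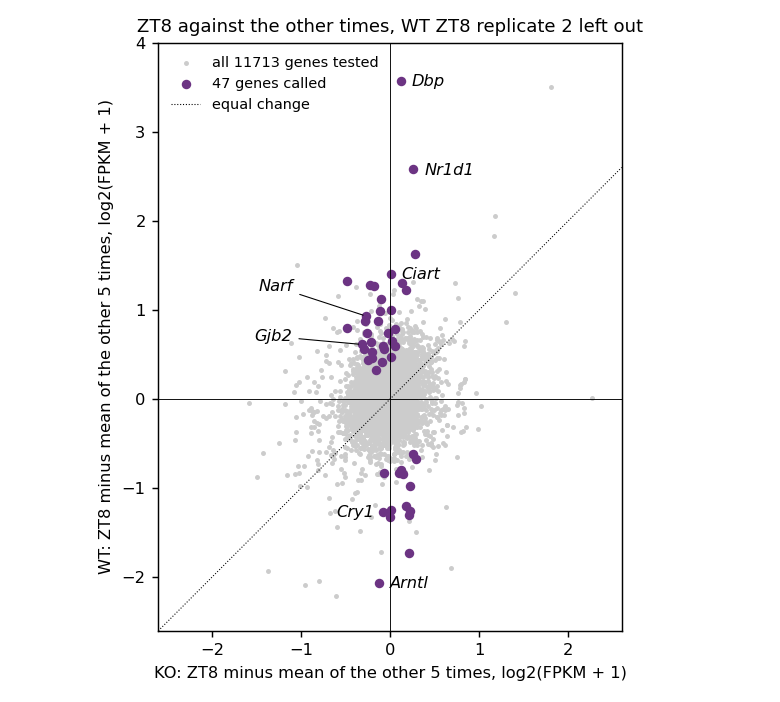
Change at ZT8 against the mean of the other 5 times in KO (horizontal axis) and in WT (vertical axis), log2(FPKM + 1), without WT replicate 2 of ZT8; grey points are all 11713 genes tested, purple points the 47 called, and the dotted line marks equal change. The purple points spread less along the KO axis than along the WT axis, where they reach 3.57 for Dbp and -2.06 for Arntl on the WT axis.

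Outside the clock lists, the 37 other genes held enzymes, transporters and regulators. Clpx, encoding the unfoldase of a mitochondrial protease, read 175, 142 and 157 FPKM in KO, against 27.4, 85.9 and 26.1 FPKM in WT at ZT8. Slc5a6, encoding a carrier of biotin and pantothenate, read 1.42, 1.26 and 1.11 FPKM in KO and 5.08, 1.43 and 4.45 FPKM in WT. In both genes WT replicate 2 was the WT liver closest to the KO livers. Their differences between ZT8 and the other times were 1.48 (adjusted p = 1.65e-05) and -1.22 (adjusted p = 4.72e-08) without that liver. Wee1, a kinase that holds back entry into mitosis and is a known clock target, gave -0.99 (adjusted p = 8.29e-05). Cebpa, a transcription factor of the hepatocyte, read 54.4, 52.6 and 45.9 FPKM in KO and 110, 92.4 and 105 FPKM in WT, a difference of -0.74 (adjusted p = 0.0408), with the WT livers all above the KO livers.

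Genes called at ZT8 and at no other time in that fit included Tbcel (-1.16, adjusted p = 0.00364), Ttc39b (-0.99, adjusted p = 0.00364; not called at ZT8 with all 6 livers, adjusted p = 0.219), Gnpnat1, an enzyme of UDP-N-acetylglucosamine synthesis (-0.85, adjusted p = 0.0363), the nucleoporin gene Nup50 (-0.69, adjusted p = 0.00533), the atypical MAP kinase gene Mapk6 (-0.67, adjusted p = 0.00603), and Igf2r, the receptor that carries mannose 6-phosphate proteins to lysosomes (-0.52, adjusted p = 0.00533). Their values here are differences between ZT8 and the other times. The KO to WT calls of Gnpnat1, Mapk6 and Igf2r at ZT8 with all livers were not made under either other scaling. The Igf2r levels at ZT8 were 8.28, 8.22 and 8.23 FPKM in KO and 12.5, 9.31 and 12.0 FPKM in WT, without overlap. Of the genes with a positive difference, Lonrf3 read 4.55, 4.52 and 4.78 FPKM in KO and 0.689, 3.56 and 0.987 FPKM in WT (difference 1.37, adjusted p = 4.51e-06), and Slc45a3 read 15, 13.6 and 16.8 FPKM in KO and 1.68, 12.4 and 2.61 FPKM in WT (1.94, adjusted p = 0.00328). In both, WT replicates 1 and 3 were low and WT replicate 2 lay just below the KO livers. Lgalsl, encoding a protein related to galectins, had 17.3, 16.6 and 17.1 FPKM in KO and 2.85, 13.5 and 2.8 FPKM in WT (1.32, adjusted p = 1.79e-06). Nedd4l, a ubiquitin ligase gene, had 6.82, 5.71 and 6.64 FPKM in KO and 2.03, 7.01 and 2.46 FPKM in WT (0.91, adjusted p = 0.000595), and here WT replicate 2 was above all KO livers. Btg1, a gene that restrains cell division, gave 0.96 (adjusted p = 0.00603). Among the negative ones, the chromatin gene Jade1 had 5.48, 5.36 and 5.03 FPKM in KO and 14.6, 5.13 and 14.1 FPKM in WT (-1.01, adjusted p = 0.000195). Coq10b, which serves the use of coenzyme Q, gave -1.81 (adjusted p = 0.0184), the mineralocorticoid receptor gene Nr3c2 -0.73 (adjusted p = 0.0172), and Bach1, a repressor of heme oxygenase, -0.55 (adjusted p = 0.0363). Lhpp, a phosphatase gene, passed this test (-1.28, adjusted p = 0.0411) without being called between KO and WT at ZT8 (-0.56 ± 0.27, adjusted p = 0.257).

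Sex-biased liver genes were among the lowest and the highest fold changes at ZT8. In rodent liver, the pattern of growth hormone release sets which of these genes are on. Of the 21 female-biased genes tested, 13 fell and 0 rose in the female KO livers, with a median log2 fold change of -3.38, and 14 fell without WT replicate 2. The gene gained was Trim24 (-1.09 ± 0.25, adjusted p = 0.00687, against 0.0514 with all livers). Of the 17 male-biased genes tested, with 6 of the list below the filter, 5 rose and 0 fell, with a median of 0.95, and 4 rose without that liver. Over all tested genes 3.88% fell, 2.04% rose and the median was -0.06, and the genotypes did not overlap with KO higher for 7.07% of genes and with KO lower for 16.5%. None of the 38 passed the test of ZT8 against the other times in either fit, and the female-biased list had 10, 13, 16, 11 and 11 members lower at ZT0, 4, 12, 16 and 20. The shares of all tested genes lower at those times were 1.97%, 1.06%, 8.91%, 3.36% and 2.1%.

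Cyp2a4 (chromosome 7, 26307192 to 26315088), a steroid hydroxylase, read 1.75, 2.72 and 0.957 FPKM in KO and 544, 556 and 477 FPKM in WT. The 3 WT livers agree closely here, WT replicate 2 included. Its log2 fold change of -7.59 ± 0.40 was the lowest of the named genes (adjusted p = 1.62e-13). Sult2a1, a sulfotransferase of bile acids and steroids, varied more in WT, with 0.195, 1.01 and 0.288 FPKM in KO and 130, 277 and 45.8 FPKM in WT (-6.36 ± 0.74, adjusted p = 1.43e-06). The steroid enzyme gene Cyp17a1 gave -5.08 ± 0.50, and Cyp3a44 -5.65 ± 0.81. Sult2a2, Cyp3a16, Sult3a1, Cyp2b13, Slc22a26, Cyp2a5 and Cyp3a41a were also among the 12 lowest, between -6.16 and -3.98. Cyp2a4 and Cyp2a5, the Sult2a genes and the Cyp3a genes have near-identical copies, so how reads were split among them is uncertain.

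Elovl3 (chromosome 19, 46131897 to 46135694), which elongates very long chain fatty acids, had the highest fold change. It read 13.4, 60.7 and 28.4 FPKM in KO and 0.685, 0.846 and 0.907 FPKM in WT (4.04 ± 0.92, adjusted p = 0.00622). Hsd3b5, a steroid dehydrogenase, read 30.0, 132 and 30.7 FPKM in KO and 4.90, 0.516 and 5.59 FPKM in WT. KO replicate 2 was the highest and WT replicate 2 the lowest, and the call (3.70 ± 1.06, adjusted p = 0.0328) was lost without WT replicate 2 (adjusted p = 0.133). Cyp2d9 read 109, 274 and 157 FPKM in KO and 15.2, 11.3 and 16.2 FPKM in WT (3.48 ± 0.58, adjusted p = 0.000271). The urinary protein genes Mup20 (2.89 ± 0.64) and Mup21 (2.93 ± 0.67) also rose, with the spread wider among KO livers than among WT livers, and the Mup genes too have near-identical copies. Over all tested genes 2.04% rose and 3.88% fell. Of the growth hormone and IGF axis, 1 of 12 tested rose and 0 fell, namely Stat5a (0.46 ± 0.14, adjusted p = 0.049). Stat5b rose as well without WT replicate 2 (0.60 ± 0.18, adjusted p = 0.0419). With only the 6 ZT8 libraries, and with the replicate number as a block, 0 were called.

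**Figure D5:**
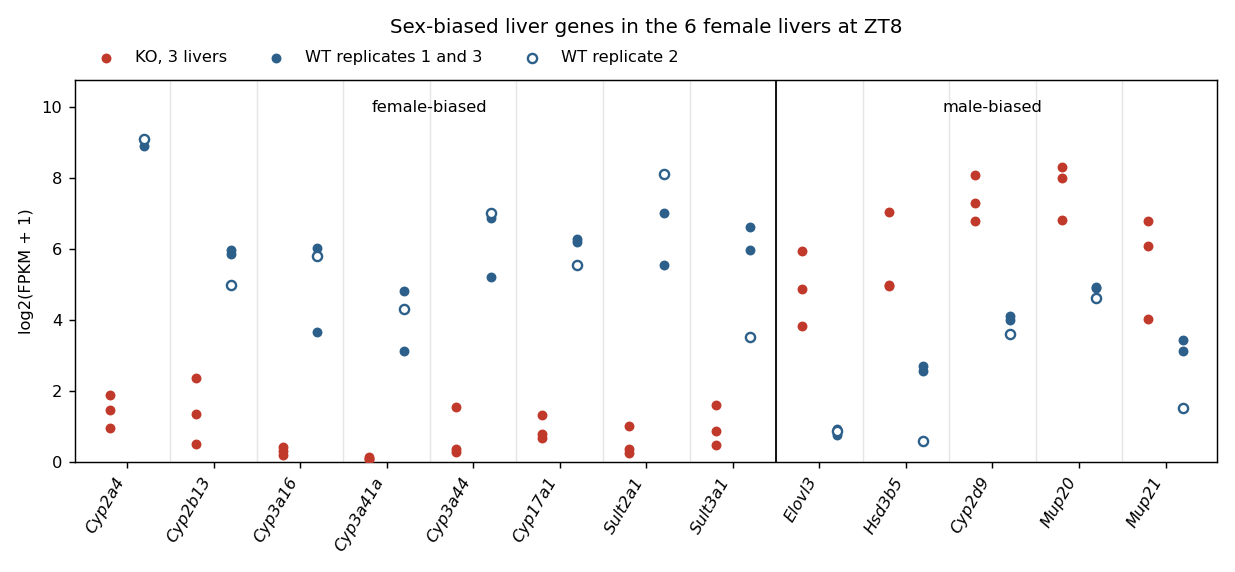
Level of 8 female-biased (left) and 5 male-biased (right) genes in each liver at ZT8, as log2(FPKM + 1); red points are the 3 KO livers, filled blue points WT replicates 1 and 3, and open blue points WT replicate 2. All KO points are below all WT points in the female-biased genes shown and above them in the male-biased genes shown, which were picked from those called. Of the 21 female-biased genes tested, 14 had all KO livers below all WT livers (16.5% of all genes). Of the 17 male-biased genes tested, 7 had all KO livers above all WT livers (7.07% of all genes).

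The highest fold changes also held genes with no sex bias on the list. Lpl, the lipase that releases fatty acids from lipoproteins, read 68.9, 71.3 and 75.6 FPKM in KO and 7.48, 5.80 and 6.34 FPKM in WT (3.28 ± 0.40, adjusted p = 3.09e-06). Ndrg1 read 34.6, 31.9 and 33.9 FPKM in KO and 4.49, 4.43 and 5.85 FPKM in WT (2.55 ± 0.21, adjusted p = 2.57e-09). Both had narrow ranges in each genotype and were called at all 6 times. Spon2, a matrix protein gene, gave 2.69 ± 0.30, Loxl4, a lysyl oxidase gene, 2.47 ± 0.23, Cyp2c55 3.10 ± 0.41 and Sult2a7 2.48 ± 0.71. Hectd2os, an antisense RNA, gave 3.12 ± 0.41, and whether counting used the strand is not given in the sources used here.

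Over all tested genes at ZT8, 3.88% fell, 2.04% rose and the median was -0.06. Of the 21 fatty acid and triglyceride synthesis genes tested, 5 fell and 0 rose, with a median of -0.96. They were the desaturase genes Scd1 (-1.29 ± 0.38), Fads1 (-0.80 ± 0.14) and Fads2 (-1.11 ± 0.17), the lipogenic gene Thrsp (-2.66 ± 0.76) and Dgat2, which makes triglycerides (-0.70 ± 0.19). Fads2 read 82.0, 111 and 91.3 FPKM in KO and 193, 189 and 235 FPKM in WT, without overlap. Without WT replicate 2, Scd1 (adjusted p = 0.102) and Thrsp (adjusted p = 0.108) were not called, and Agpat2 was called higher (0.69 ± 0.21, adjusted p = 0.0435). None passed the test of ZT8 against the other times. The count of 5 lower stood beside 5 at ZT0, 0 at ZT4, 6 at ZT12, 3 at ZT16 and 0 at ZT20. Among all tested genes 1.97%, 1.06%, 8.91%, 3.36% and 2.1% were lower at those times.

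Of the NAD genes, 4 of 19 fell and 0 rose, with a median of -0.14. Over all tested genes 3.88% fell, 2.04% rose and the median was -0.06. Nampt, whose enzyme limits the salvage of NAD and which is a known clock target, read 12.3, 18.2 and 11.6 FPKM in KO and 26.3, 29.8 and 29.1 FPKM in WT (-0.99 ± 0.19, adjusted p = 0.000977). Nmrk1, a nicotinamide riboside kinase, gave -0.99 ± 0.18 and Nadk, which makes NADP, -0.52 ± 0.11. Naprt (-0.44 ± 0.13, adjusted p = 0.041) was not called without WT replicate 2 (adjusted p = 0.191), with quantile normalization or with the 20 highest genes left out of the sums. The values of WT replicate 2 for Nampt lay among those of the other WT livers.

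For the glucose, glycogen and insulin lists the base is 2.04% of all tested genes higher and 3.88% lower. Without WT replicate 2 it is 2.45% and 4.02%. Gys2, liver glycogen synthase, was the 1 of 15 glycogen genes that fell, with 29.8, 36.3 and 30.6 FPKM in KO and 85.7, 54.6 and 88.9 FPKM in WT (-1.19 ± 0.23, adjusted p = 0.00132). Pdk4, the kinase that shuts off pyruvate dehydrogenase, was the 1 of 23 glycolysis and gluconeogenesis genes that rose. It read 18.1, 4.56 and 10.3 FPKM in KO and 0.920, 7.59 and 1.23 FPKM in WT, where the genotypes overlapped through WT replicate 2 (1.68 ± 0.50, adjusted p = 0.0447). Without that liver, Ppp1r3c (1.78 ± 0.37, adjusted p = 0.00241) and Ppp1r3b (1.42 ± 0.41, adjusted p = 0.0315), which target a phosphatase to glycogen, rose, and the glucose transporter gene Slc2a2 fell (-1.04 ± 0.29, adjusted p = 0.0286). Of 18 insulin signalling and FOXO target genes, 3 fell and 0 rose: Akt1 (-0.57 ± 0.13), Pik3r1 (-0.71 ± 0.19) and Trib1 (-0.95 ± 0.27). Trib1 was not called with the 20 highest genes left out of the sums. The count was 4 without WT replicate 2, with Foxo3 added (-0.64 ± 0.18, adjusted p = 0.0321).

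The calls in the sterol and bile acid lists at ZT8 stand beside 2.04% of all tested genes higher and 3.88% lower. Of 26 cholesterol genes 1 rose, Insig2, which retains the sterol sensor in the endoplasmic reticulum (84.7, 87.9 and 104 FPKM in KO, 26.8, 51.7 and 22.9 FPKM in WT; 1.51 ± 0.36, adjusted p = 0.00958), and 1 fell, the sterol carrier gene Stard4 (-0.77 ± 0.21, adjusted p = 0.0276). Stard4 was not called under either other scaling. At ZT20 10 of the same 26 were higher and 0 lower, beside 5.25% and 2.1% of all tested genes. Their median was 1.11 at ZT20, against -0.07 at ZT8. Klb, a co-receptor for hormones of the FGF19 family, was the 1 of 20 bile acid genes that fell (-0.86 ± 0.15, adjusted p = 0.000597). Of the 26 fatty acid oxidation and PPARα genes, Lpl and the fatty acid uptake gene Cd36 rose (1.2 ± 0.25, adjusted p = 0.003) and 0 fell.

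Among all tested genes 2.04% rose and 3.88% fell, and 2.45% and 4.02% without WT replicate 2. Of 32 xenobiotic metabolism genes, 1 rose and 8 fell, with a median of -0.11, and 1 rose and 6 fell without WT replicate 2. The gene that rose was Cyp2c55, and the lowest was Cyp2a5, with 41.5, 13.8 and 37.8 FPKM in KO and 616, 429 and 456 FPKM in WT (-4.09 ± 0.53, adjusted p = 7.68e-06). The esterase gene Ces1d (-1.64 ± 0.22), the glutathione transferase gene Gsta4 (-1.68 ± 0.33), the drug exporter gene Abcb1a (-1.45 ± 0.24), the sulfotransferase gene Sult1a1 (-1.13 ± 0.25) and the bilirubin transferase gene Ugt1a1 (-1.10 ± 0.17) fell in both fits. Cyp3a13 and Ugt2b34 were lost without WT replicate 2 (adjusted p = 0.138 and 0.102). Por, the reductase that feeds electrons to cytochromes P450, read 48.1, 33.6 and 47.5 FPKM in KO and 150, 87.0 and 130 FPKM in WT (-1.47 ± 0.28, adjusted p = 0.0012), and was the 1 of 12 heme genes that fell. Fech, which puts iron into heme, also fell without WT replicate 2 (-0.39 ± 0.11, adjusted p = 0.0291).

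For the cell cycle and acute phase lists the base is 2.04% of all tested genes higher and 3.88% lower. Among cell cycle genes, 2 of 19 rose and 3 fell, the same numbers without WT replicate 2. Cdkn1a, an inhibitor of cyclin-dependent kinases, read 5.87, 6.58 and 8.17 FPKM in KO and 0.388, 2.56 and 0.359 FPKM in WT (2.05 ± 0.52, adjusted p = 0.0146). Ccnd1, encoding cyclin D1, read 3.68, 10.2 and 7.44 FPKM in KO and 28.6, 15.3 and 31.9 FPKM in WT (-1.72 ± 0.42, adjusted p = 0.0116). Ccng2 also rose (0.90 ± 0.27), and Wee1 (-0.95 ± 0.17) and Gadd45a (-1.14 ± 0.27) also fell. In the acute phase list 2 of 22 rose and 3 fell, and without WT replicate 2, in which Orm2 (53.4 FPKM) and Orm3 (11.8 FPKM) were the highest of the 6 livers, 2 rose and 1 fell. Saa4, an apolipoprotein of the serum amyloid family, fell in both fits, with 22.2, 17.4 and 27 FPKM in KO and 63.3, 87.6 and 46.6 FPKM in WT (-1.50 ± 0.23, adjusted p = 9.08e-05), while ceruloplasmin (Cp, 0.78 ± 0.17) and Itih3 (0.65 ± 0.16) rose.

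The remaining lists held at most 2 calls in each direction, beside 2.04% of all tested genes higher and 3.88% lower. Of 17 glucocorticoid-responsive genes, Cdkn1a and Zbtb16 rose and the receptor gene Nr3c1 fell. Zbtb16 read 6.39, 4.52 and 11.7 FPKM in KO and 1.74, 2 and 2.25 FPKM in WT (1.43 ± 0.40, adjusted p = 0.0285, and 0.0583 without WT replicate 2). Without that liver, Tsc22d3 rose (1.22 ± 0.33, adjusted p = 0.0246). Of 21 genes of the unfolded protein and integrated stress responses, the transcription factor gene Atf5 rose (75, 79 and 57.5 FPKM in KO, 32.2, 40.9 and 34.8 FPKM in WT; 0.94 ± 0.20, adjusted p = 0.00341) and the pseudokinase gene Trib3 fell (-0.83 ± 0.21, adjusted p = 0.0127). There was 1 call in each direction among 16 heat shock and cold-inducible genes, both lost without WT replicate 2, and 0 higher and 1 lower among 20 urea cycle and amino acid genes, 17 autophagy genes and 24 interferon response genes. Those 2 lower genes of the urea cycle and interferon lists, Asl (-1.10 ± 0.32) and Usp18 (-0.78 ± 0.23), and Nr3c1 (-0.37 ± 0.11) were not called under either other scaling, and without WT replicate 2 Asl (adjusted p = 0.126) and Nr3c1 (adjusted p = 0.0677) were not called. In the autophagy list the lower gene was Atg5 with all livers (-0.49 ± 0.13, adjusted p = 0.0182) and Bnip3 without WT replicate 2 (-0.78 ± 0.23, adjusted p = 0.0349). In the interferon list Rtp4 fell besides Usp18 without that liver (-0.76 ± 0.22, adjusted p = 0.0384).

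Markers of cell types were compared in the same way, beside 2.04% of all tested genes higher and 3.88% lower in KO. Alb, the most abundant hepatocyte marker, read 12040, 21465 and 17101 FPKM in KO and 36144, 33121 and 38832 FPKM in WT (-1.13 ± 0.24, adjusted p = 0.00341), and took 3.88% to 5.75% of the summed FPKM in KO against 9.17% to 10.4% in WT. It was the 1 of 7 hepatocyte markers tested that fell, and it was not called with quantile normalization. The summed hepatocyte markers read 23709 to 38420 FPKM in KO and 44269 to 51807 FPKM in WT. Alb was the largest part of this sum in all 6 livers, and the median log2 fold change of the 7 markers was -0.09. In whole tissue, fewer cells of a type and less RNA per cell cannot be told apart. Kupffer cell, endothelial and stellate cell markers had 0 calls of 11, 10 and 10. Their sums were 228 to 403, 157 to 162 and 142 to 163 FPKM in KO, and 319 to 346, 164 to 168 and 151 to 184 FPKM in WT. With quantile normalization, and with the 20 highest genes left out of the sums, 1 endothelial marker was called higher. Cholangiocyte markers summed to 14.7, 46.6 and 35.4 FPKM in KO and 13.8, 17.8 and 14 FPKM in WT, with 12.4, 44.4 and 33.1 FPKM of these in KO and 12.8, 15.9 and 12.8 FPKM in WT from Spp1. Of these Sox9 rose (0.81 ± 0.16, adjusted p = 0.00137), while Krt7, Krt19, Epcam and Cftr stayed under 0.6 FPKM in all 6 livers. Of the red cell markers Alas2 was higher in KO (0.97 ± 0.29, adjusted p = 0.0457; 0.0506 without WT replicate 2). Lymphocyte, neutrophil, adipocyte and acinar markers had 0 calls, and the acinar marker Ctrb1 was listed at 0 in all 6 livers. The part of these differences in the other results was not tested.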

How the data were processed

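The authors deposited 1 table for 54 livers, whose values they scaled by gene length and depth into what was taken as FPKM. The table does not name its unit, which was inferred from the values: in the 6 ZT8 libraries 11.1% to 14.4% of low values fell on 1 step after multiplication by transcript length and 2.64% to 3.55% without it, and 38.5% to 48.4% lay within 0.1 of a whole number of steps, so whole reads were not recovered and depth is an estimate. Libraries were stranded total RNA without ribosomal RNA, sequenced from 1 end, per the labels' protocols. CASAVA 1.8.2 and mm10 are named in the submitters' processing notes, without their role. No source used here gives the aligner, the counter or the annotation.

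KO and WT libraries (36, in 12 groups of 3) entered 1 limma 3.58.1 model (R 4.3.3) of group means on log2(FPKM + 1), with empirical Bayes and an intensity trend. Genes under a mean of 0.5 FPKM over the 6 ZT8 libraries (6366) were left out. P-values were Benjamini-Hochberg adjusted, with a threshold of 0.05. The series' design gives 3 livers per group, and the labels tie no liver to a numbered animal, so p-values measure the spread between these livers. On simulated data of 11713 genes, log2 changes of 0.5, 1 and 2 were recovered for 47.0%, 88.1% and 98.8% in KO against WT at ZT8 (3.73% false calls) and for 42.3%, 84.5% and 98.3% in the test of ZT8 against the other times (3.93% false). The simulation used independent normal noise with 1 spread per gene and changed 200 genes, only in KO at ZT8. It held no effect of time and no liver out of phase, so these rates check the fit and need not hold for the real livers.

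The members, gene lists and tests were chosen with earlier results of these data known. Named are all clock list members; the 12 highest and 12 lowest changes called at ZT8 where the higher genotype averaged 1 FPKM or more; the 10 smallest p-values in each direction of the test of ZT8 against the other times; the 10 largest such differences among genes called at ZT8 alone; and up to 4 members per list, without predicted genes. Beyond this rule, the text also names further called members of a list, markers, Cebpa and Lrfn3, chosen after their values were seen, and leaves out some genes for length; a few genes that the rule names are not reported here, but are in the counts. Applying the rule also without WT replicate 2 was chosen after seeing the data. Alternatives were a pseudocount of 0.1, no filter, quantile normalization, the 20 highest genes left out of the sums, robust empirical Bayes, a replicate block, only the 6 ZT8 libraries, a threshold of 0.01 and each library left out. Libraries of the other times were left out only for the test of the KO to WT difference at ZT8 against the other times. RefSeq (GRCm38.p6, the assembly of mm10) gave coordinates and promoters, matched by symbol. Tables and figures were made in Python 3.11.15 (numpy 2.4.6, pandas 2.3.3, matplotlib 3.10.9).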

Additional observations from a re-analysis of the deposited data

Results flagged for a closer look

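The KO to WT difference at ZT8 differed from its mean over the other 5 times for 2 genes, by a test of that difference over all 11713 genes (limma, adjusted p = 0.0406 for both). Narf differed by -0.93, with 7.38, 9.28 and 7.54 FPKM in KO and 19.1, 10.3 and 18.1 FPKM in WT at ZT8. Gjb2 differed by -0.87, with 42.1, 46.4 and 44.3 FPKM in KO and 108, 86.2 and 88.3 FPKM in WT at ZT8. Both adjusted p-values lie near the threshold of 0.05. With quantile normalization, with the 20 highest genes left out of the sums, and with the replicate number as a block, 0 genes passed. In 21 of the 36 fits that each left out 1 library, 0 passed as well.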

How the results depend on the processing

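Without WT replicate 2 of ZT8 the count of genes that differ between ZT8 and the other times was 47 in place of 2, and that of WT at ZT8 against the other times 180 in place of 8. With each ZT8 library left out in turn, 129 to 287 genes were higher and 253 to 471 lower at ZT8. The same fits gave between 0 and 180 genes for WT at ZT8 against the other times. For KO they gave between 0 and 6, against 0 with all libraries. Libraries of the other times were not left out for these counts. For the test of the KO to WT difference, each of the 36 libraries was left out in turn, which gave between 0 and 47 genes. With quantile normalization 368 genes were higher, and 0 and 2 passed the tests of the difference and of WT at ZT8 against the other times; with the 20 highest genes left out of the sums, 262 were lower and again 0 and 2 passed. With no filter, 3 genes passed in WT and 2 in KO. Only the 6 ZT8 libraries gave 128 higher and 201 lower genes, and 240 and 328 when WT replicate 2 was left out of that fit as well. At a threshold of 0.01, 122 were higher and 215 lower. With the replicate number as a block, 250 were higher and 477 lower, and 0 passed the test of the difference. Nothing in the labels ties KO to WT livers of 1 number: their deviations correlated at 0.165, 0.015 and -0.019 at ZT8, and over all 6 times between -0.17 and 0.45, above 0.1 in 8 of 18 pairs and in all 3 pairs at ZT0 alone. Other scalings were not tried with WT replicate 2 left out. The causes were not tested, except that a stricter threshold lowers counts by construction. A pseudocount of 0.1 and robust empirical Bayes kept all 5 counts within 1.5 times. Of the 155 named genes, 105 were called; 13 lost the call and 9 gained it without WT replicate 2, 11 and 3 with quantile normalization, 53 and 3 with only the 6 ZT8 libraries, and 10 and 5 with the block, and none changed direction while called. Depth is an estimate, and 3 livers per group, 2 in WT without replicate 2, limit the precision.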
